A study of Mus musculus with 24 samples.

Results

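Pomc, the gene of the ACTH and melanocyte-stimulating hormone precursor, and 3 transcription factor genes of the cells that make it, Tbx19, Pax7 and Neurod1, were followed in pituitary RNA of mice labelled as conditional knockouts of Egr1 and of their controls. The 4 genes were taken by symbol, through their Ensembl identifiers, from a count table of 35191 genes. The table covered 24 libraries, 3 in each of 8 groups, and each group joined a sex with a genotype. The genotypes were Egr1cKO (floxed Egr1 with Cre, labelled FF (+)), Egr1cKO control (floxed Egr1 without Cre, FF (-)), Cre control (unfloxed with Cre, wt (+)) and wild type (unfloxed without Cre, wt (-)). Floxed mice and Cre control mice thus each carry one of the 2 alleles that the Egr1cKO mice combine. The sources used here do not state which promoter drives Cre, which exon is deleted, the strain, the age or whether animals were pooled.

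Pomc is transcribed in a pair of pituitary endocrine cell types. Corticotropes of the anterior lobe cut the precursor to ACTH, and melanotropes of the intermediate lobe cut it further to alpha-MSH and beta-endorphin. TBX19 (Tpit) is the T-box factor both types need to activate Pomc, NEUROD1 is a basic helix-loop-helix factor that binds an E-box of the Pomc promoter in corticotropes, and PAX7 is the paired homeodomain pioneer factor that opens melanotrope enhancers. Egr1 encodes an immediate early zinc-finger factor that binds GC-rich sites.

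Total counts per library ran between 15486069 and 26255343. The level of Xist, the only sex-linked transcript checked, matched the sex label in 24 of 24 libraries, at a cut-off set from the labelled sexes. Egr1 itself was not lower in libraries labelled Egr1cKO than in Egr1cKO controls: its level ranged over 7.55 to 162 CPM (counts per 1e6 reads, scaled by TMM) in female and 58.2 to 238 CPM in male libraries labelled Egr1cKO, against 9.78 to 34.2 CPM in female and 22.7 to 51.1 CPM in male Egr1cKO controls. Cre controls ranged higher, over 61.7 to 485 CPM in females and 25.2 to 485 CPM in males, and overlapped the libraries labelled Egr1cKO in both sexes; wild type ranged over 10.9 to 167 CPM in females and 19.1 to 51.4 CPM in males. A count over the whole gene says nothing of a lost exon, so the group names are used here as labels. Titles number the floxed and the unfloxed libraries in 2 separate series, so floxed status and series cannot be told apart. Nothing beyond the title numbers says that libraries came from separate animals, so each p-value reflects the spread among these libraries alone, which may be technical.

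Pomc (ENSMUSG00000020660) lies on chromosome 12, 3954951 to 3960642, plus strand, in GRCm38, with 1318 exonic bases in GENCODE M21. Its promoter is shown because TBX19 and NEUROD1 are known to act on the Pomc promoter, of which this window is only the part nearest the start. The marked matches were found by letters alone and were not set against the known sites of these factors. The 250 bases before the RefSeq start (GRCm38.p6, chr12:3954695-3954944, plus strand) are printed with capitals at E-boxes (CANNTG), the T-box core (GGTGTG) and the TATA box (TATAAA).
Pomc promoter: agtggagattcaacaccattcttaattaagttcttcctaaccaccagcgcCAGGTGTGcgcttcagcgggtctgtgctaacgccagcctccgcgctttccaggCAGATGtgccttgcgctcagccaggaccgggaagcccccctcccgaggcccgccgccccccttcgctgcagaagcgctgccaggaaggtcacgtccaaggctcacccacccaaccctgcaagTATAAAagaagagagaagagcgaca
The first E-box starts 200 bases before the start and overlaps the T-box core at 198, the second E-box starts at 147 and the TATA box at 25. On both strands, 66.0% of 27025 mouse gene promoters of this length hold an E-box, 16.2% the T-box core and 13% a TATA box, so none of these matches is rare.

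Tbx19 (ENSMUSG00000026572, chromosome 1, 165137855 to 165160773, minus strand, 3192 exonic bases) had 1 E-box in its promoter window. In its window Pax7 (ENSMUSG00000028736, chromosome 4, 139737062 to 139833528, minus strand, 5860 exonic bases) matched none of the motifs searched, which also included a palindromic paired homeodomain site (0.470% of promoters), the Pitx site TAATCC (6.38%), the NGFI-B site AAAGGTCA (1.31%) and the EGR site GCGNGGGCG (4.65%). That window, before the RefSeq start (chr4:139832969-139833218), lies wholly inside the GENCODE span of Pax7. Sequence before the GENCODE start of Pax7 was thus not searched. Neurod1 (ENSMUSG00000034701, chromosome 2, 79452521 to 79456751, minus strand, 2729 exonic bases) had 1 E-box, and it alone among the 4 members held the EGR site, at 2 places 59 and 18 bases before its RefSeq start. Both places lie inside its GENCODE span, after the GENCODE start. They are shown because Egr1 is the gene named in the labels; the capitals mark the EGR site, which reads on the opposite strand (GRCm38.p6, chr2:79456676-79456705 and chr2:79456637-79456666, minus strand).
Neurod1 at 59: ctcacggcccCGCCCGCGCtcagcatcagc
Neurod1 at 18: atataaccctagCGCCCGCGCcaccgggac
A match describes letters and is not evidence of binding. Neurod1 shares 201 exonic bases with Cerkl on its own strand and 154 with the antisense Gm26755, and how reads there were counted in these non-stranded libraries is not known.

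Pomc was by far the most abundant of the members. Per kilobase of exon, the median level over the 24 libraries was 29860 CPM for Pomc, 59.7 CPM for Tbx19, 13.7 CPM for Pax7 and 4.02 CPM for Neurod1. The level also varied most for Pomc, by 31.0-fold between the lowest and the highest library (7239 to 224180 CPM), against 11.4-fold for Pax7, 6.33-fold for Neurod1 and 4.66-fold for Tbx19. The smallest member count in any library was 79 reads, for Neurod1.

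Pomc was highest in female libraries labelled Egr1cKO. Its 3 libraries measured 80915, 189882 and 224180 CPM, against 38535, 26565 and 11535 CPM in female Egr1cKO controls. Male libraries labelled Egr1cKO measured 38665, 44507 and 111002 CPM, against 7239, 30867 and 19288 CPM in male Egr1cKO controls. In both sexes the 2 groups were apart. Female Cre controls measured 93190, 50587 and 50946 CPM, against 38188, 40045 and 35554 CPM in female wild type. Male Cre controls measured 44015, 29966 and 46633 CPM, against 48048, 26153 and 8792 CPM in male wild type. The female unfloxed groups were apart with the Cre control above, and the male unfloxed groups overlapped. In the order of the 8 group means, female Egr1cKO led at 164992 ± 74805 CPM and male Egr1cKO control came last at 19132 ± 11815 CPM (SD, n = 3 each), and no 2 neighbours in that order had ranges apart.

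Tbx19, the T-box activator of Pomc, varied least of the 4. It measured 225, 279 and 432 CPM in female libraries labelled Egr1cKO, against 193, 224 and 141 CPM in female Egr1cKO controls. In males it measured 203, 186 and 222 CPM in libraries labelled Egr1cKO, against 139, 159 and 145 CPM in Egr1cKO controls. Both pairs of groups were apart, the female pair by about 1 CPM. Female Cre controls measured 433, 188 and 326 CPM, against 203, 157 and 160 CPM in female wild type, and male Cre controls 211, 182 and 183 CPM, against 202, 167 and 92.9 CPM in male wild type. Both unfloxed pairs overlapped. Female Cre control (315 ± 123 CPM) and female Egr1cKO (312 ± 107 CPM) headed the order, and the step down to male Egr1cKO (204 ± 17.9 CPM, SD, n = 3 each) was the only one between neighbours without overlap.

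Pax7, which sets melanotrope identity, was highest in the same female group as Pomc. It measured 135, 174 and 111 CPM in female libraries labelled Egr1cKO, against 80.4, 59.2 and 36.3 CPM in female Egr1cKO controls. In males it measured 57.8, 76.5 and 85.6 CPM in libraries labelled Egr1cKO, against 15.3, 57.4 and 40.4 CPM in Egr1cKO controls. Those groups were apart in both sexes, in males by less than 1 CPM. Male Cre controls, at 87.1, 98.6 and 102 CPM, lay above male wild type, at 45.9, 54.8 and 24.7 CPM. Female Cre controls, at 70.7, 85.1 and 91.1 CPM, overlapped female wild type, at 79.9, 85.6 and 126 CPM, and their mean was the lower. Neighbours in the order of group means, led by female Egr1cKO (140 ± 31.7 CPM) and closed by male Egr1cKO control (37.7 ± 21.2 CPM, SD, n = 3 each), all overlapped.

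Neurod1, the basic helix-loop-helix partner, had another order. Female Cre controls stood highest, with 22.1, 23.6 and 22.9 CPM, against 5.17, 3.72 and 6.40 CPM in female wild type, the lowest group. Female libraries labelled Egr1cKO measured 18.1, 13.1 and 15.7 CPM, against 11.4, 11.3 and 9.70 CPM in female Egr1cKO controls. Both female pairs were apart with Cre above. Male Cre controls measured 17.1, 11.7 and 10.8 CPM, against 6.23, 9.42 and 4.98 CPM in male wild type, also apart, while male libraries labelled Egr1cKO, with 8.20, 12.6 and 7.66 CPM, overlapped male Egr1cKO controls, with 11.1, 6.73 and 6.71 CPM. The step between female Cre control (22.9 ± 0.708 CPM) and female Egr1cKO (15.6 ± 2.51 CPM, SD, n = 3 each) was the only one in its order without overlap.

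**Figure D1:**
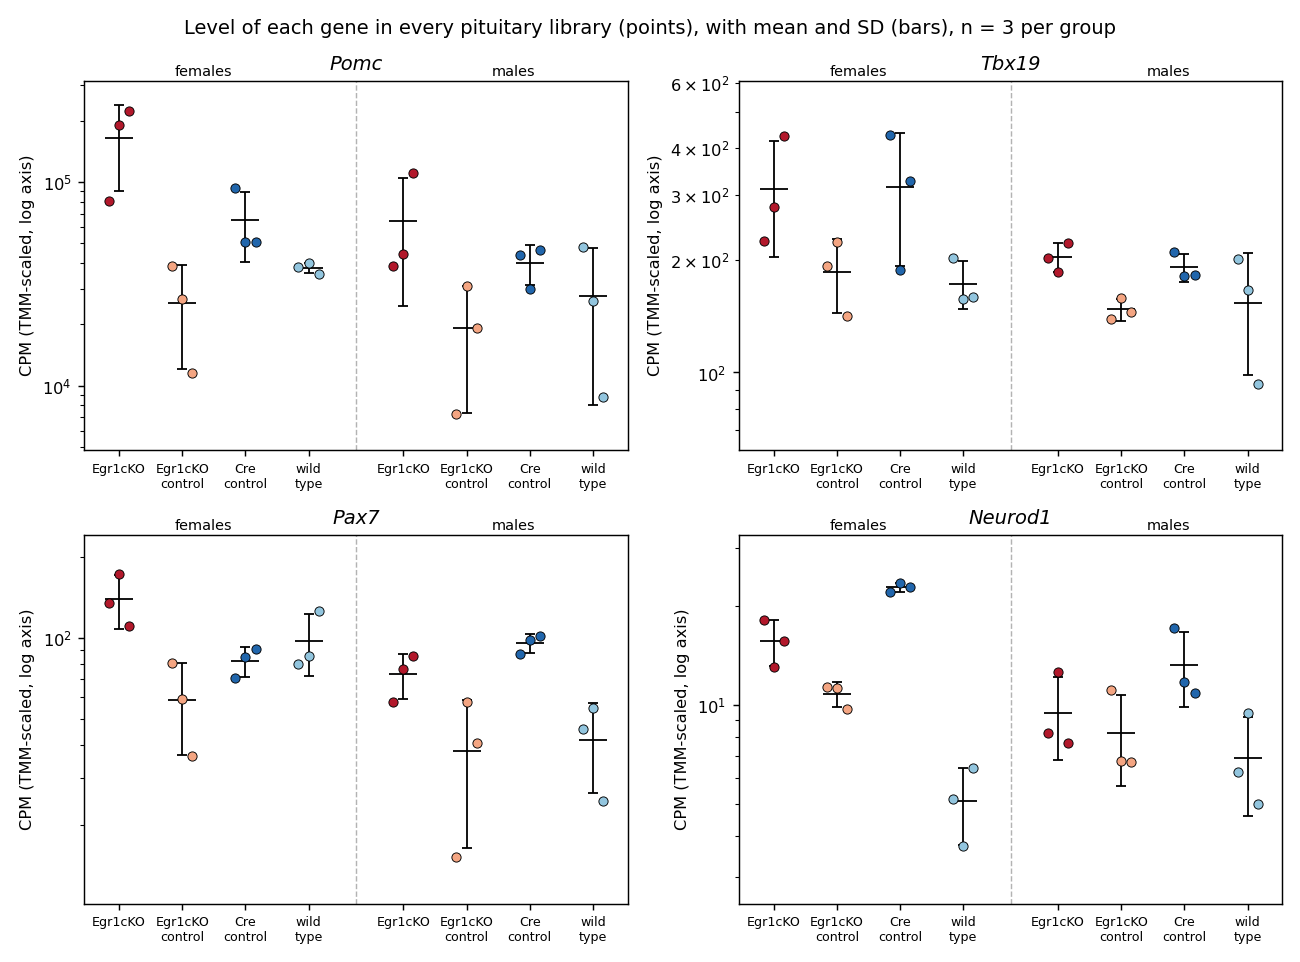
TMM-scaled CPM on a log axis for each gene in each of the 24 libraries; points are libraries, bars the mean and SD of 3, females left and males right of the dashed line. Pomc and Pax7 peak in the female libraries labelled Egr1cKO (164992 and 140 CPM on average), and Neurod1 in the female Cre controls (22.9 CPM).

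Cre was present in 12 libraries and absent in 12, in 4 pairs of groups that share no library: in females and again in males, Egr1cKO against Egr1cKO control and Cre control against wild type. Taken as the mean of these 4 differences, all 4 members rose in libraries with Cre. Pomc was 2.72-fold higher (95% interval 1.81 to 4.07), Neurod1 1.95-fold (1.58 to 2.40), Pax7 1.73-fold (1.34 to 2.23) and Tbx19 1.51-fold (1.25 to 1.84). The log2 fold changes were 1.44 for Pomc (SE 0.28, edgeR adjusted p = 0.0022), 0.96 for Neurod1 (SE 0.15, edgeR adjusted p = 0.000112), 0.79 for Pax7 (SE 0.18, edgeR adjusted p = 0.00681) and 0.60 for Tbx19 (SE 0.14, edgeR adjusted p = 0.00594). Of all 21927 genes tested, 2.8% were called higher in this comparison. The 4 calls held in each of the 24 fits with 1 library left out and in each of 8 other fits (other scalings, filters and covariates, and DESeq2). Bulk RNA cannot tell more cells of a type from more RNA per cell.

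The 4 differences behind that mean were positive for 15 of 16 gene and pair combinations, and the groups were apart with Cre above in 11 of 16; the exception in sign was Pax7 in the female unfloxed pair, at -0.24. Few passed alone. In female libraries labelled Egr1cKO against their controls, all 4 members were higher without overlap (9.57% of all genes were so), and 1 was called higher (0.762% of all genes). That gene was Pomc, whose log2 difference came to 2.69 (SE 0.59, edgeR adjusted p = 0.0169). The others gave 1.25 for Pax7 (edgeR adjusted p = 0.063), 0.74 for Tbx19 (edgeR adjusted p = 0.134) and 0.53 for Neurod1 (edgeR adjusted p = 0.316). The Pomc call was lost without control replicate 2 (edgeR adjusted p = 0.0818), control replicate 3 (edgeR adjusted p = 0.0742) or Egr1cKO replicate 3 (edgeR adjusted p = 0.0806). Mitochondrial transcripts took 8.73 to 10.4% of counts in those libraries, against 3.50 to 6.87% in the controls, and 18508 to 20556 genes were detected, against 19896 to 24702; with the mitochondrial share in the fit Pomc gave 2.27 (edgeR adjusted p = 0.0947).

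In males the difference between libraries labelled Egr1cKO and their controls was 1.76 for Pomc (SE 0.57, 95% interval 0.58 to 2.94, edgeR adjusted p = 0.481). No member was called in edgeR or in DESeq2, and 0.041% of all genes were called by edgeR in either direction. At an unadjusted p under 0.05 there were 2 members and 1441 of all genes. Without overlap, 3 of the 4 were higher, as were 10.8% of all genes. In the female unfloxed pair, Cre control against wild type, 1 member was called higher (0.369% of all genes), and 2 were higher without overlap (8.02% of all genes). The called gene was Neurod1, 4.48-fold higher (95% interval 2.91 to 6.89; log2 fold change 2.16, SE 0.30, edgeR adjusted p = 0.00056). It stayed called in 6 of 6 fits with 1 library left out, but not when those 6 libraries were fitted alone (edgeR adjusted p = 0.142), a fit that called 2 genes in all. Female wild type replicate 1 stood apart from its group, with 10.1% mitochondrial counts against 2.14 and 2.7% in the other 2 libraries and 18663 genes detected against 23987 and 25410. Without it Neurod1 gave 2.17 (edgeR adjusted p = 0.0001), Tbx19 gave 0.99 and was called (edgeR adjusted p = 0.0366), and 3605 genes were called in this pair, against 264 with it. In the male unfloxed pair, Pax7 (log2 fold change 1.20, edgeR adjusted p = 0.197) and Neurod1 (0.94, edgeR adjusted p = 0.215) were higher without overlap, as were 11.1% of all genes. No member was among the 0.233% of genes called by edgeR, and DESeq2 called Pax7. An unadjusted p under 0.05 was found for 2 members and 2378 of all genes.

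**Figure D2:**
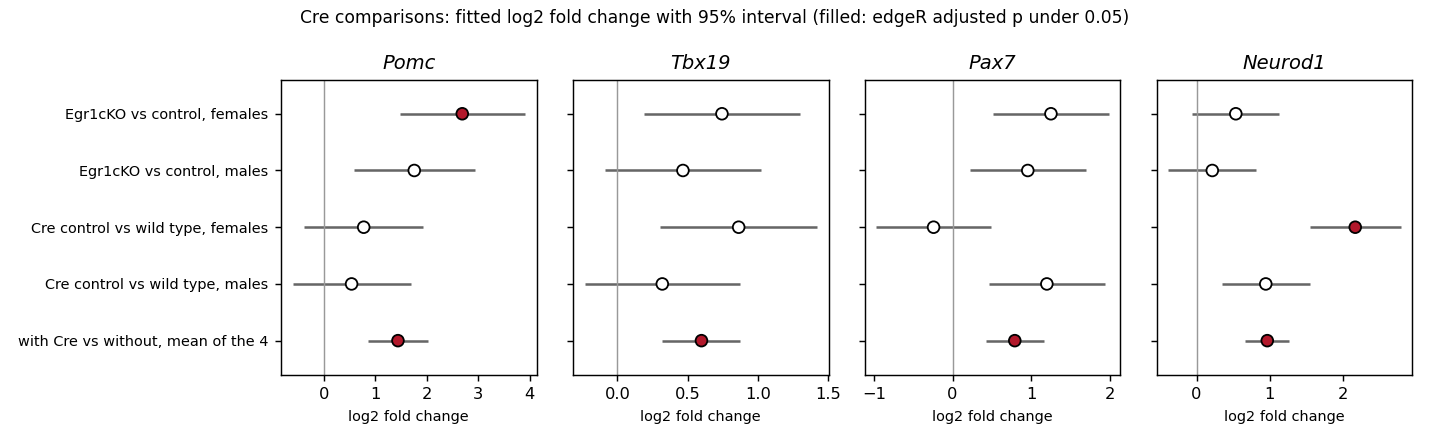
Fitted log2 fold change of each gene (x axis) with its 95% interval in the 4 pairs of groups and as their mean; filled points passed the edgeR adjusted p threshold of 0.05. In the mean of the 4 pairs every gene is filled, at 1.44 for Pomc, 0.60 for Tbx19, 0.79 for Pax7 and 0.96 for Neurod1, whereas Pomc is filled in the female floxed pair and Neurod1 in the female unfloxed pair.

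Split by title series, which is also the split by floxed status, the members gave different values. All 24 libraries stayed in the fit, and only the pairs averaged changed. In floxed libraries alone the mean Cre difference was 2.22 for Pomc (edgeR adjusted p = 0.00334) and 1.10 for Pax7, both called, and 0.61 for Tbx19 and 0.37 for Neurod1, neither called. In unfloxed libraries alone it was 1.55 for Neurod1, which was called, and 0.66 for Pomc, 0.59 for Tbx19 and 0.48 for Pax7, which were not. The difference between the 2 series, the Egr1cKO effect beyond the Cre effect, was tested directly. It was 1.57 for Pomc (SE 0.56, unadjusted p = 0.00975, edgeR adjusted p = 0.925) and -1.18 for Neurod1 (SE 0.29, unadjusted p = 0.00041, edgeR adjusted p = 0.827), with 0.62 for Pax7 and 0.01 for Tbx19. No gene of the 21927 passed this test in edgeR (0% called, 1125 at an unadjusted p under 0.05), and DESeq2 called 3, no member among them. Whether Cre differences depended on sex was also tested. No member was called in edgeR, where 2.06% of all genes were, or in DESeq2. An unadjusted p under 0.05 was found for 1 member and 4804 of all genes. The female minus male value was largest for Neurod1, at 0.77 (SE 0.29, edgeR adjusted p = 0.126), and lowest for Pax7, at -0.57 (edgeR adjusted p = 0.35).

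Without Cre, floxed and unfloxed mice were compared as Egr1cKO control against wild type. No member was called by edgeR in either sex, and 0% of genes were (3247 genes in females and 196 in males had an unadjusted p under 0.05). Among the members 2 had such a p in females and 0 in males, and DESeq2 called 1 in females, Neurod1, and 0 in males. Neurod1 was higher without overlap in female Egr1cKO controls, by 1.08 on the log2 scale (95% interval 0.47 to 1.69, edgeR adjusted p = 0.103), as were 5.89% of all genes. Without female wild type replicate 1 it gave 1.08 and was called (edgeR adjusted p = 0.0196), in a fit that called 4248 genes. Pomc gave -0.57 in females (95% interval -1.72 to 0.58) and -0.53 in males (95% interval -1.68 to 0.62), intervals that hold large differences in both directions.

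Ratios of counts within a library remove the scaling between libraries, and only their change between groups has a meaning here. The log2 ratio of Pomc to Tbx19 was 8.97 ± 0.46 in female libraries labelled Egr1cKO, against 6.96 ± 0.65 in female Egr1cKO controls (SD, n = 3 each), and the groups were apart (8.49 to 9.41 against 6.35 to 7.64). In males it was 8.14 ± 0.73 in libraries labelled Egr1cKO, against 6.79 ± 0.98 in Egr1cKO controls, ranging over 7.57 to 8.96 against 5.70 to 7.60, which overlapped. Between Cre control and wild type it was 7.70 ± 0.39 against 7.78 ± 0.22 in females and 7.69 ± 0.31 against 7.25 ± 0.67 in males. The ranges were thus apart in floxed females and not in unfloxed ones; these ratios carry no test.

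The Neurod1 to Tbx19 ratio showed the other arrangement. It was -3.70 ± 0.65 in female Cre controls, against -5.11 ± 0.41 in female wild type, with ranges of -4.29 to -3.00 and -5.39 to -4.64 that were apart. In female libraries labelled Egr1cKO it was -4.28 ± 0.59, against -4.08 ± 0.22 in their controls, which overlapped. The ratio of Pcsk2, the convertase that melanotropes use on the Pomc precursor, to Pomc stayed within -6.81 to -6.27 over the 8 group means.

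**Figure D3:**
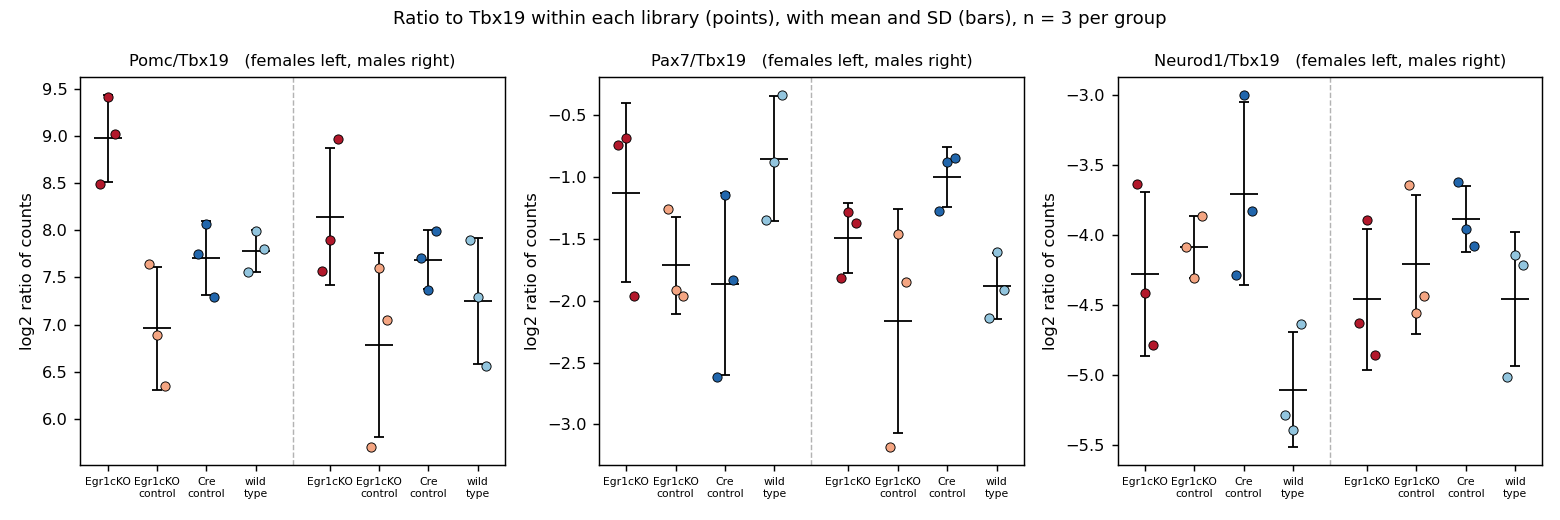
Log2 ratio of the counts of Pomc, Pax7 and Neurod1 to Tbx19 in each library (points), with mean and SD of 3 (bars), females left and males right. Pomc to Tbx19 separates female libraries labelled Egr1cKO (8.97) from their controls (6.96), and Neurod1 to Tbx19 separates female Cre controls (-3.70) from female wild type (-5.11). In unfloxed males, Neurod1 to Tbx19 and Pax7 to Tbx19 also separate Cre control from wild type.

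Between the sexes, Tbx19 and Pax7 were higher in females when the difference was averaged over the 4 genotypes. Tbx19 was 1.37-fold higher (95% interval 1.13 to 1.67; log2 fold change 0.46, SE 0.13, edgeR adjusted p = 0.0166) and Pax7 1.56-fold higher (95% interval 1.21 to 2.01; log2 fold change 0.64, SE 0.18, edgeR adjusted p = 0.0126). Pomc (0.73, edgeR adjusted p = 0.063) and Neurod1 (0.37, edgeR adjusted p = 0.0686) were positive and missed the threshold. These 2 of 4 calls stand against 9.99% of all genes called higher in females. Mitochondrial share was apart between the sexes in libraries labelled Egr1cKO (8.73 to 10.4% in females against 2.76 to 3.79% in males) and in Cre controls (5.52 to 6.69% against 2.08 to 3.20%), and overlapped in Egr1cKO controls (3.50 to 6.87% against 2.20 to 3.55%) and wild type (2.14 to 10.1% against 2.08 to 4.80%). With it in the fit neither call held (0.12 for Tbx19, edgeR adjusted p = 0.843; 0.63 for Pax7, edgeR adjusted p = 0.33). Marker lists described further on also moved with sex. In females 7 of 10 posterior lobe markers (median 0.76) and 3 of 7 melanotrope markers (median 0.66) were called higher. There 5 of 7 corticotrope markers (median -1.25) were called lower, as were 11.7% of all genes, whose median was -0.06. Other lists moved too: 3 of 4 gonadotrope, 2 of 3 thyrotrope and 3 of 5 endothelial markers were called lower and 0 higher. Of 10 processing genes 8 were called lower and 1 higher, and of 4 lactotrope and somatotrope markers 2 lower and 1 higher. Their part in the members' sex differences was not tested.

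Within single genotypes no member passed in edgeR. The unadjusted p was under 0.05 for 4 in libraries labelled Egr1cKO, 0 in Egr1cKO controls, 2 in Cre controls and 1 in wild type. Of all 21927 genes, 6818, 3021, 5171 and 1542 had such a p in the same order of genotypes. DESeq2 called 2, 0, 0 and 1 of the members in that order. In libraries labelled Egr1cKO, where 13.1% of all genes were called in either direction, the female minus male values were 1.35 for Pomc, 0.93 for Pax7, 0.72 for Neurod1 and 0.61 for Tbx19 (edgeR adjusted p between 0.0796 and 0.124), and 3 of the 4, all but Pomc, were higher without overlap, as were 14.9% of all genes. Pomc was called there without male Egr1cKO replicate 3 (edgeR adjusted p = 0.0418). In wild type the value was 1.22 for Pax7 (SE 0.36, edgeR adjusted p = 0.219), higher in females without overlap, as were 4.62% of all genes; 0.283% of genes were called. In Cre controls, with 3.61% of genes called, Pomc (0.69) and Neurod1 (0.79) were higher in females without overlap, as were 15% of all genes. In Egr1cKO controls, with 0.451% of genes called, all 4 overlapped between the sexes.

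**Figure D4:**
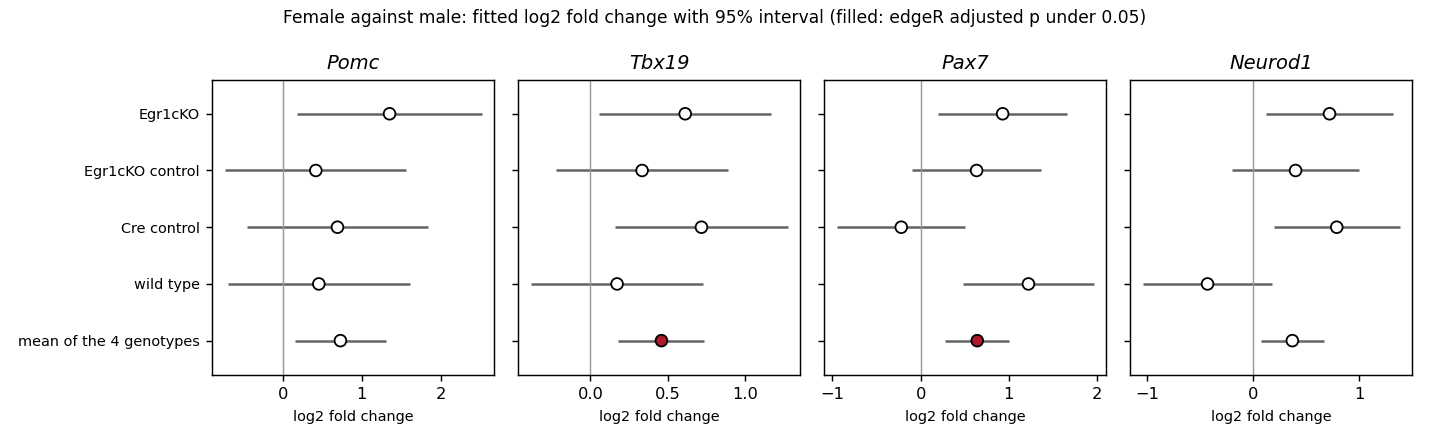
Fitted log2 fold change of females against males for each gene (x axis), with its 95% interval, in the 4 genotypes and as their mean; filled points passed the edgeR adjusted p threshold of 0.05. In the mean, Tbx19 (0.46) and Pax7 (0.64) are filled, and no single genotype has a filled point.

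Genes that mark the Pomc cell types were set beside the members in the mean of the 4 Cre differences. The median log2 fold change of all genes there was -0.03, with 2.8% of them called higher and 4.08% lower. The lists were chosen with earlier results of these data known. Of 7 melanotrope markers 7 rose, with a median of 0.97. They were Pcsk2 (1.58, SE 0.25, edgeR adjusted p = 0.000572), the acyltransferase gene Oacyl (1.37, edgeR adjusted p = 0.00604), Esm1 (1.37), Pkib (0.97), Megf11 (0.87), the gulonolactone oxidase gene Gulo (0.81) and the dopamine D2 receptor gene Drd2 (0.56, edgeR adjusted p = 0.0181). Of 7 corticotrope markers 0 passed in edgeR (1 had an unadjusted p under 0.05) and 0 in DESeq2, at a median of 0.38 with 6 positive. The CRH receptor gene Crhr1 gave 0.25 (edgeR adjusted p = 0.329), the vasopressin receptor gene Avpr1b 0.36 (edgeR adjusted p = 0.64) and Tnnt1 0.50 (edgeR adjusted p = 0.0842). The difference between the 2 lists was not tested. Summed over the 7 markers, melanotrope genes made 2609 to 4009 CPM in female libraries labelled Egr1cKO, against 484 to 1440 CPM in their controls, and the melanotrope sums were apart with Cre above in the other 3 pairs too. Corticotrope genes summed to 35.0 to 47.7 CPM in female libraries labelled Egr1cKO, against 35.8 to 48.6 CPM in their controls, which overlapped. In males they were apart, at 65.7 to 71.7 CPM in libraries labelled Egr1cKO, against 40.6 to 53.7 CPM in their controls. Cre controls had 49 to 57.8 CPM, against 26.1 to 64.5 CPM in wild type, in females, and 60.5 to 82.1 CPM, against 43.7 to 63.2 CPM in wild type, in males, and both overlapped.

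Markers of the posterior lobe, which adjoins the intermediate lobe, moved with the members. Of 10, 7 rose, and all 10 were positive, with a median of 0.72: they included the hypothalamic hormone genes Oxt (1.05, edgeR adjusted p = 0.000235) and Avp (1.25, edgeR adjusted p = 0.00816), the pituicyte factor genes Nkx2-1 (1.03) and Lhx2 (0.93), and Col25a1, Scn7a and Vim (0.69, 0.75 and 0.50). Summed, the 10 made 559 to 723 CPM in female libraries labelled Egr1cKO, against 334 to 360 CPM in their controls. In males the sums were 396 to 465 CPM in libraries labelled Egr1cKO, against 152 to 376 CPM in their controls. Cre controls had 485 to 540 CPM, against 350 to 444 CPM in wild type, in females, and 284 to 428 CPM, against 163 to 269 CPM in wild type, in males, so all 4 pairs were apart with Cre above. None of the 10 was at 0 in every library. Markers of lactotropes and somatotropes went the other way, 4 of 4 falling: Prl by 2.17, Ghrhr by 1.27, Gh by 1.13 and Pou1f1, the factor gene of those lineages, by 0.97. The part of these shifts in the members' differences was not tested.

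**Figure D5:**
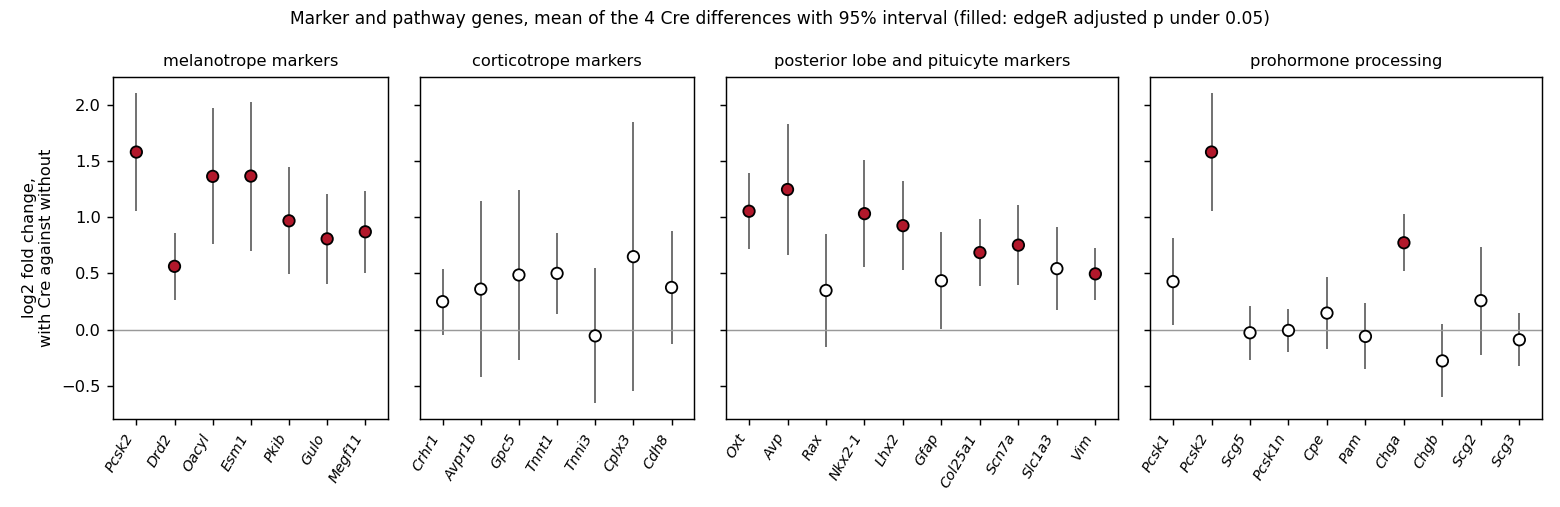
Log2 fold change with 95% interval, with Cre against without Cre as the mean of the 4 pairs (y axis), for 4 lists of genes; filled points passed the edgeR adjusted p threshold of 0.05. All 7 melanotrope markers are filled, none of the 7 corticotrope markers is, 7 of 10 posterior lobe markers are, and of 10 processing genes only Pcsk2 (1.58) and Chga (0.77) are.

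Among 20 transcription factors of the Pomc lineage and their partners, 3 rose and 1 fell. Those that rose included Isl1 and Nr4a2. Isl1, a LIM homeodomain factor gene, gave 0.57 (SE 0.11, edgeR adjusted p = 0.00177), with 42.8 to 46.1 CPM in female Cre controls against 13.7 to 25.5 CPM in female wild type. The orphan nuclear receptor gene Nr4a2 gave 1.94 (edgeR adjusted p = 0.0443), a call kept in 8 of 24 fits with 1 library left out, the highest adjusted p being 0.115. Pou1f1, already named, was the one that fell. Pitx1, the homeodomain factor that acts with TBX19 on Pomc, gave 0.12 (edgeR adjusted p = 0.49), and Nr3c1, the glucocorticoid receptor gene behind feedback on Pomc, -0.17 (edgeR adjusted p = 0.504). The median of the 20 was 0.05.

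Of 10 genes for prohormone processing and granules, 2 rose: Pcsk2 and the granin gene Chga (0.77, edgeR adjusted p = 0.000198). Pcsk1, the convertase that releases ACTH, gave 0.43 (SE 0.19, edgeR adjusted p = 0.181), and the median of the 10 was 0.07. Of 12 genes for signals received by Pomc cells, Drd2 rose and 3 fell, with a median of -0.26. The leukaemia inhibitory factor receptor gene Lifr fell by 0.45 (edgeR adjusted p = 0.0101). The CRH-binding protein gene Crhbp fell by 1.83 in the mean (edgeR adjusted p = 0.0301), over values of opposite sign. It was 1.50 in the female floxed pair and -0.23 in the female unfloxed pair, against -5.21 and -3.36 in the male pairs. In males Crhbp was near 0, at means of 0.015 CPM in libraries labelled Egr1cKO against 0.73 CPM in their controls and 0.026 CPM in Cre controls against 0.32 CPM in wild type, so those fitted values rest on very few reads. The GABA-B receptor gene Gabbr2 fell by 1.0 (edgeR adjusted p = 0.0497). The calls of Crhbp and Gabbr2 were kept in 15 and 3 of 24 fits with 1 library left out, with highest adjusted p of 0.0965 and 0.0891.

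Across the 24 libraries the members' log2 CPM went together to different degrees. Over 6 pairs of genes, with two-sided permutation p-values adjusted over the 6, Pomc correlated with Tbx19 at r = 0.82 (rho = 0.81) and with Pax7 at r = 0.82 (rho = 0.68), each with a permutation adjusted p of 3.0e-05 for r, which rests on the smallest p the resampling could give. Without the 2 libraries farthest from the Pomc median these were 0.77 and 0.78; in the floxed libraries they were 0.89 and 0.92, and in the unfloxed ones 0.87 and 0.62 (n = 12 each). Pomc with Neurod1 gave r = 0.39 (rho = 0.50, permutation adjusted p = 0.0694 for r and 0.0156 for rho). Tbx19 correlated with Neurod1 at r = 0.63 (rho = 0.60, permutation adjusted p = 0.00164) and with Pax7 at r = 0.57 (rho = 0.55, permutation adjusted p = 0.00688), and Pax7 with Neurod1 at r = 0.32 (rho = 0.43, permutation adjusted p = 0.132 for r).

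These values include the differences between the 8 groups. After subtraction of the 8 group means, Pomc kept r = 0.71 with Tbx19 (permutation adjusted p = 0.00426) and r = 0.69 with Pax7 (permutation adjusted p = 0.048), while Tbx19 with Pax7 gave 0.23 and the pairs with Neurod1 gave -0.16 for Pomc, 0.12 for Tbx19 and -0.04 for Pax7. Libraries of 1 group that were high in Pomc thus tended to be high in Tbx19 and in Pax7.

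The genes whose log2 CPM most resembled each member over the 24 libraries were ranked by r among 10258 genes with a mean of at least 10 CPM, as a description. Members, predicted genes (Gm or Rik names), pseudogenes and identifiers without annotation were left out of these 10258. Closest to Pomc were Pcsk2 (0.97), Pkib (0.94), Rbfox3 (0.94), Oacyl (0.92) and Aloxe3 (0.91). Closest to Tbx19 were Aloxe3 (0.91), Usp29 (0.85) and Scn2a (0.85), and closest to Pax7 were Gulo (0.93), Etv1 (0.92) and Oacyl (0.92). Neurod1 had a separate set: Isl1 (0.91), Vegfa (0.82) and Igdcc4 (0.80). Pcsk2, first for Pomc, ranked 15 for Pax7, 18 for Tbx19 and 618 for Neurod1.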

How the data were processed

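The deposited table holds unnormalized counts per Ensembl gene; per the labels, libraries were non-stranded, from polyA RNA of 1.5 ug total RNA. The submitters' processing notes name Trim Galore 3.8.2, FastQC, STAR 2.7.9 and GRCm38; which tool and annotation gave the counts is not given in the sources used here. Of the identifiers, 35077 matched GENCODE M21 and 114 did not. In R 4.3.3, edgeR 4.0.16 kept 21927 genes (filterByExpr), all 4 members among them, scaled by TMM and fitted 8 group means with 16 residual degrees of freedom. Each of 14 comparisons used the robust quasi-likelihood test with Benjamini-Hochberg adjustment over all 21927 genes (threshold 0.05). Scripts were tested on simulated data. Named genes were the members, 8 preset list genes, list genes called in a Cre comparison, otherwise up to 2 per list, and the closest patterns. Members and lists were chosen with earlier results of these data known. Correlations used log2 CPM (prior count 2) and 100000 resamples; ratios added 0.5 to counts. Promoters are RefSeq GRCm38.p6 (4 of 4 members matched). Alternatives were another scaling, filters, DESeq2 1.42.0, covariates, only the groups compared and left-out libraries. No 2 libraries were duplicates. A gene of the transcription factor list is counted but not reported here.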

Additional observations from a re-analysis of the deposited data

Results flagged for a closer look

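The Cre difference was tested for a dependence on sex (female minus male, mean over floxed and unfloxed mice). None of the 4 members passed, and 6 list genes did. Scg2 (-2.05, edgeR adjusted p = 0.0335) and Cdh8 (-1.94, edgeR adjusted p = 0.0427), both named after their values were seen, and Trhr (-1.54, edgeR adjusted p = 0.0353) and Nr3c1 (-1.04, edgeR adjusted p = 0.0455) had the lower Cre difference in females. Crhbp (4.92, edgeR adjusted p = 0.0171) and Prl (1.72, edgeR adjusted p = 0.0188) had the higher one. With 1 library left out, the calls were kept in 24 of 24 fits for Prl, 23 for Crhbp, 10 for Trhr and 5 for Nr3c1, with highest adjusted p of 0.0489, 0.0507, 0.0928 and 0.110. With the mitochondrial share in the fit, Nr3c1 (-0.63), Trhr (-1.0) and Crhbp (5.15, edgeR adjusted p = 0.0677) were not called, and Prl was (1.78, edgeR adjusted p = 0.0418). Scg2 and Cdh8 were not followed in the fits with a library left out or with the mitochondrial share. Crhbp was near 0 in males. Groups of 3 libraries were too small for a formal search for single outlying libraries; female wild type replicate 1 is described in the results.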

How the results depend on the processing

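No paired analysis was possible because replicate numbers follow accession order and the labels pair no libraries. The 4 members' Cre differences averaged over the pairs stayed called in the other 8 fits over all libraries and with each library left out. Splitting by title series was chosen after seeing the data. In unfloxed libraries the differences were then not called for Pomc (0.66), Pax7 (0.48) and Tbx19 (0.59). In floxed ones they were not called for Tbx19 (0.61) and Neurod1 (0.37). Those values came from the fit of all 24 libraries, with the mean taken over the pairs of that series alone. Library totals without TMM factors shift every gene by 0.13 in that mean and by -0.12 between the sexes.

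Other calls moved as follows, and the cause was not tested. Pomc in the female floxed pair was not called with the mitochondrial share (2.27) or the number of genes detected (2.29) as a covariate, and ran over 2.34 to 3.13 with 1 library left out. Neurod1 in the female unfloxed pair was not called with only the groups compared (2.16). Without the low-count filter, which gave far smaller p-values, calls were gained for Tbx19 and Pax7 in the female floxed pair (0.73 and 1.24), Pomc and Pax7 in the male floxed pair (1.75 and 0.95), Tbx19 in the female unfloxed pair (0.85), Pax7 in the male unfloxed pair (1.21), Pomc beyond Cre (1.56) and Pomc between the sexes (0.72). DESeq2 gained Pax7 in the female floxed (1.24) and male unfloxed (1.20) pairs, Tbx19 in the female unfloxed pair (0.84), and Pomc (0.76) and Neurod1 (0.40) between the sexes. A mean of at least 10 CPM gained Pax7 in the female floxed pair (1.26) and Pomc (0.75) and Neurod1 (0.39) between the sexes; only the groups compared gained Pax7 (1.24); RLE factors gained Neurod1 between the sexes (0.40); the mitochondrial share gained Neurod1 beyond Cre (-1.29). The sex difference was not called for Tbx19 with the mitochondrial share (0.12), genes detected (0.19), floxed (0.47) or unfloxed (0.44) libraries, nor for Pax7 with library totals (0.52), mitochondrial share (0.63), genes detected (0.60) or unfloxed libraries (0.50).

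Signs turned for values near 0. Tbx19 beyond Cre gave -0.17 with totals, -0.23 with mitochondrial share and -0.014 with genes detected, Tbx19 by sex in Egr1cKO -0.030 with mitochondrial share, and Tbx19 in male Egr1cKO controls against wild type 0.024, 0.0092 and 0.037 with the same 3 settings. With 1 library left out, ranges were -0.14 to 0.17 for Tbx19 beyond Cre, -0.045 to 0.50 for Neurod1 in the male floxed pair, -0.022 to 0.92 for Pomc by sex in Egr1cKO controls and -0.087 to 0.42 for Tbx19 by sex in wild type. For Egr1cKO control against wild type they were -0.052 to 0.26 for Tbx19 in females, and in males -0.32 to 0.19 for Tbx19, -1.06 to 0.13 for Pomc, -0.58 to 0.23 for Pax7 and -0.031 to 0.54 for Neurod1. Tbx19 in the female unfloxed pair ran over 0.56 to 1.12 and was called, among these fits, without wild type replicate 1 alone; between the sexes Pomc (0.62 to 0.89) and Neurod1 (0.32 to 0.44) were each called in 5 of 24 fits: Pomc without male Egr1cKO control replicate 2, female Egr1cKO control replicate 3, male Egr1cKO replicate 3, female Egr1cKO replicate 1 or male wild type replicate 1, and Neurod1 without male Egr1cKO control replicate 1, male Egr1cKO replicate 2, wild type replicate 2 of either sex or male Cre control replicate 1.

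Counts of called genes depended on the fit: in the female floxed pair 484, against 300 with library totals, 1142 unfiltered, 1453 in DESeq2, 3081 with mitochondrial share, 850 with genes detected and 142 to 581 with 1 library left out (142, 282 and 178 without control replicate 2, control replicate 3 or Egr1cKO replicate 3); in the female unfloxed pair 264, against 1149 unfiltered, 1011 in DESeq2 and 29 to 3605 with 1 library left out (3605 without wild type replicate 1, otherwise 29 to 104); in the mean over pairs 1510, against 4239 with mitochondrial share; between the sexes 4761, against 596 with mitochondrial share and 809 with genes detected. The male floxed pair had 9, against 339 unfiltered, 103 in DESeq2, 208 with mitochondrial share 191 with only the groups compared and 2 to 28 with 1 library left out, and the male unfloxed pair 51, against 704, 264, 179 and 112 with the same settings and 4 to 24 with 1 library left out. The dependence of Cre on sex had 451, against 2081 unfiltered, 1373 in DESeq2, 61 with mitochondrial share and 21 with genes detected, and 68 to 4556 with 1 library left out (4556 without female wild type replicate 1). The test beyond Cre had 0, against 59 unfiltered and 320 with mitochondrial share. Egr1cKO control against wild type had 0 in females, against 805 unfiltered, 633 in DESeq2, 1497 with mitochondrial share 352 with genes detected and 4248 without wild type replicate 1, and 0 in males, against 23 unfiltered. Between the sexes within a genotype, the mitochondrial share gave 215 in place of 2864 in libraries labelled Egr1cKO, 192 in place of 791 in Cre controls and 378 in place of 62 in wild type, and DESeq2 gave 506 in place of 99 in Egr1cKO controls. With 1 library left out these counts ran over 548 to 2794, 154 to 974, 25 to 1024 (1024 without female wild type replicate 1) and 29 to 232. Most single-pair Cre differences of the members missed the edgeR adjusted threshold. Of 16, 11 had groups apart with Cre above, against 8.02 to 11.1% of all genes by pair.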

Other observations

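Markers of other cell types of the gland were read in the mean of the 4 Cre differences. Of 3 thyrotrope markers 2 rose, the thyrotropin subunit gene Tshb (0.93, edgeR adjusted p = 6.93e-05) and the TRH receptor gene Trhr (0.80, edgeR adjusted p = 0.00746). Of 4 gonadotrope markers 1 rose, the shared subunit gene Cga (0.64, edgeR adjusted p = 0.029), a call kept in 13 of 24 fits with 1 library left out. Of 6 stem and folliculostellate markers 3 rose, Sox2 (0.49), Cdh26 (0.53) and Aldh1a2 (0.30), the last kept in 5 of 24 such fits. Of 5 endothelial markers Emcn rose (0.34, kept in 9 of 24), and of 5 leukocyte markers C1qa rose (0.52, kept in 17 of 24). None of 5 red blood cell and none of 5 skeletal muscle markers passed in edgeR (0 and 1 had an unadjusted p under 0.05) or in DESeq2; the least adjusted p among them were those of Alas2 (-0.33, edgeR adjusted p = 0.565) and Tnnt3 (-2.01, edgeR adjusted p = 0.16).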
